A study of Mus musculus with 2 samples.

Results

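The genes described are 10 that mark blood cells of the platelet, myeloid and lymphoid lineages: Pf4, Ppbp and Gp9, Mpo, Csf1r, C1qb, Lyz2 and Fcer1g, and Flt3 and Il7r. They were taken by symbol from the 27514 genes of a single-cell RNA-seq count matrix, and all 10 were found. The cells came from around the dorsal aorta of mice at embryonic day 10.5, on a C57Bl6/J x B6129SF1/J background. The SP3-null library (genotype SP3KO) held 3954 cells and the wild-type library (genotype WT) 4451 cells, and the embryos of both came from matings of Sp3+/- parents. Embryos of a genotype were pooled (number: not given in the sources used here). Sorting kept Ter119-negative cells with CD31, CD144 and ESAM and with little or no CD41, the integrin encoded by Itga2b on platelet precursors and early blood progenitors. There was 1 library per genotype, captured with the Chromium 3' version 3 kit, so that genotype, pool and library cannot be told apart, no test between them was possible, and every interval below is a 95% interval that covers counting error only.

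In the embryonic aorta, some endothelial cells become hemogenic endothelium (HE), round up and bud into the lumen as intra-aortic clusters (IAC), which hold hematopoietic stem and progenitor cells and their precursors. Lineage priming is the low and often mixed transcription of genes of several blood lineages in progenitors that have not yet committed to any of them. Macrophages also lie in and around the aorta at this stage, and they carry some of the same myeloid genes at high levels.

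The authors gave each cell a class along this path: arterial endothelium (AE) with high or low Wnt target expression, conflux AE, pre-HE, HE and IAC, beside venous endothelium (VE), also split by Wnt, and other endothelium. HE held 40 SP3-null and 59 wild-type cells with medians of 21366 and 17656 unique molecular identifiers (UMIs, each a counted transcript), and IAC held 107 SP3-null and 128 wild-type cells with medians of 30343 and 31009 UMIs. Wnt-high and Wnt-low endothelium was shallower, with medians of 14958.5 and 13883 UMIs over 2164 SP3-null and 2315 wild-type cells. A list of 8 endothelial markers summed to 636 CPM (UMIs scaled to 1e+06 in the class) in SP3-null IAC and 645 CPM in wild-type IAC, and one of 8 hemogenic and hematopoietic markers to 990 and 947 CPM. In HE the second list stood at 703 and 736 CPM, with Ptprc at 0 in the wild-type library. A list of 5 neural genes stood at 309 CPM in SP3-null and 282 CPM in wild-type HE, with Sox10 at 0, and at 11.8 and 23.5 CPM in IAC, and its part in the values below was not tested. The pools differed in sex-linked transcripts. In IAC the log2 ratio of SP3-null over wild-type was -0.75 for Xist and 1.13 for 4 genes of the Y chromosome. Sp3 itself was at 42.2 CPM in SP3-null IAC and 53.6 CPM in wild-type IAC, which checks no label, since reads from the 3' end need not lie in the deleted part. The libraries shared 5 cell barcodes.

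The sequences before the start sites are shown for the genes that the results below turn on. Lyz2 was the member most often found in HE. Mpo was found in most IAC cells and in very few endothelial cells. Pf4 and Ppbp lie side by side on chromosome 5, 2372 bases apart, and were detected in very different numbers of cells. Sequence before the RefSeq start (GRCm38.p6) was available for 9 of the 10 genes, all but Csf1r. The windows searched were the 250 bases before the start. What is printed stops where an annotated transcript of the gene begins, and runs 5′ to 3′ in the direction of the gene. Capitals mark matches, on either strand, to AGATAA (the GATA factor core), TGTGGT (RUNX), GAGGAA (ETS factors such as PU.1) and GGGCGG (the GC box that SP factors bind).
Lyz2 (chr10:117282322-117282522, minus strand): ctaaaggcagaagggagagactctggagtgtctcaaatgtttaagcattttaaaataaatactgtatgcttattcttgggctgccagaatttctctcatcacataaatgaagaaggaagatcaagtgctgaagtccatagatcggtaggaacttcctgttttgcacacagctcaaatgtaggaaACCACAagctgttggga
Mpo (chr11:87793534-87793580, plus strand): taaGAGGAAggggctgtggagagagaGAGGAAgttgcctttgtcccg
Pf4 (chr5:90772185-90772434, plus strand): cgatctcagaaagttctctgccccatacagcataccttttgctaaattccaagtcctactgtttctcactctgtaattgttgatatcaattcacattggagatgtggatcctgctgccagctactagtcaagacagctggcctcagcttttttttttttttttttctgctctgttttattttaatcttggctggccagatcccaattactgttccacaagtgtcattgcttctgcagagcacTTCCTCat
Ppbp (chr5:90768268-90768517, plus strand): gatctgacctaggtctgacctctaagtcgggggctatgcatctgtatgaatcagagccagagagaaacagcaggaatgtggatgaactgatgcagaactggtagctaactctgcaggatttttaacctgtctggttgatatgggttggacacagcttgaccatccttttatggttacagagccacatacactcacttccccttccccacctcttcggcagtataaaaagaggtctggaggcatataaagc

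Lyz2 held 1 RUNX match, 66 bases before its start, Mpo 2 ETS matches and Pf4 1 ETS match 8 bases before its start. Ppbp held no match to any of the 4 motifs. Among all 9 windows the GATA core and the GC box had no match, the ETS core had matches in Pf4, Gp9, Mpo and C1qb and the RUNX core in Gp9 and Lyz2, and Fcer1g, Flt3 and Il7r had none. Over 32851 promoters of the same length, 9.99% held the GATA core, 14.0% the RUNX core, 23.3% the ETS core and 32.7% the GC box. These are matches of letters only.

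Across the classes, IAC stood above every endothelial class for the 10 genes, and HE differed from endothelium mainly in Lyz2.

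**Figure D1:**
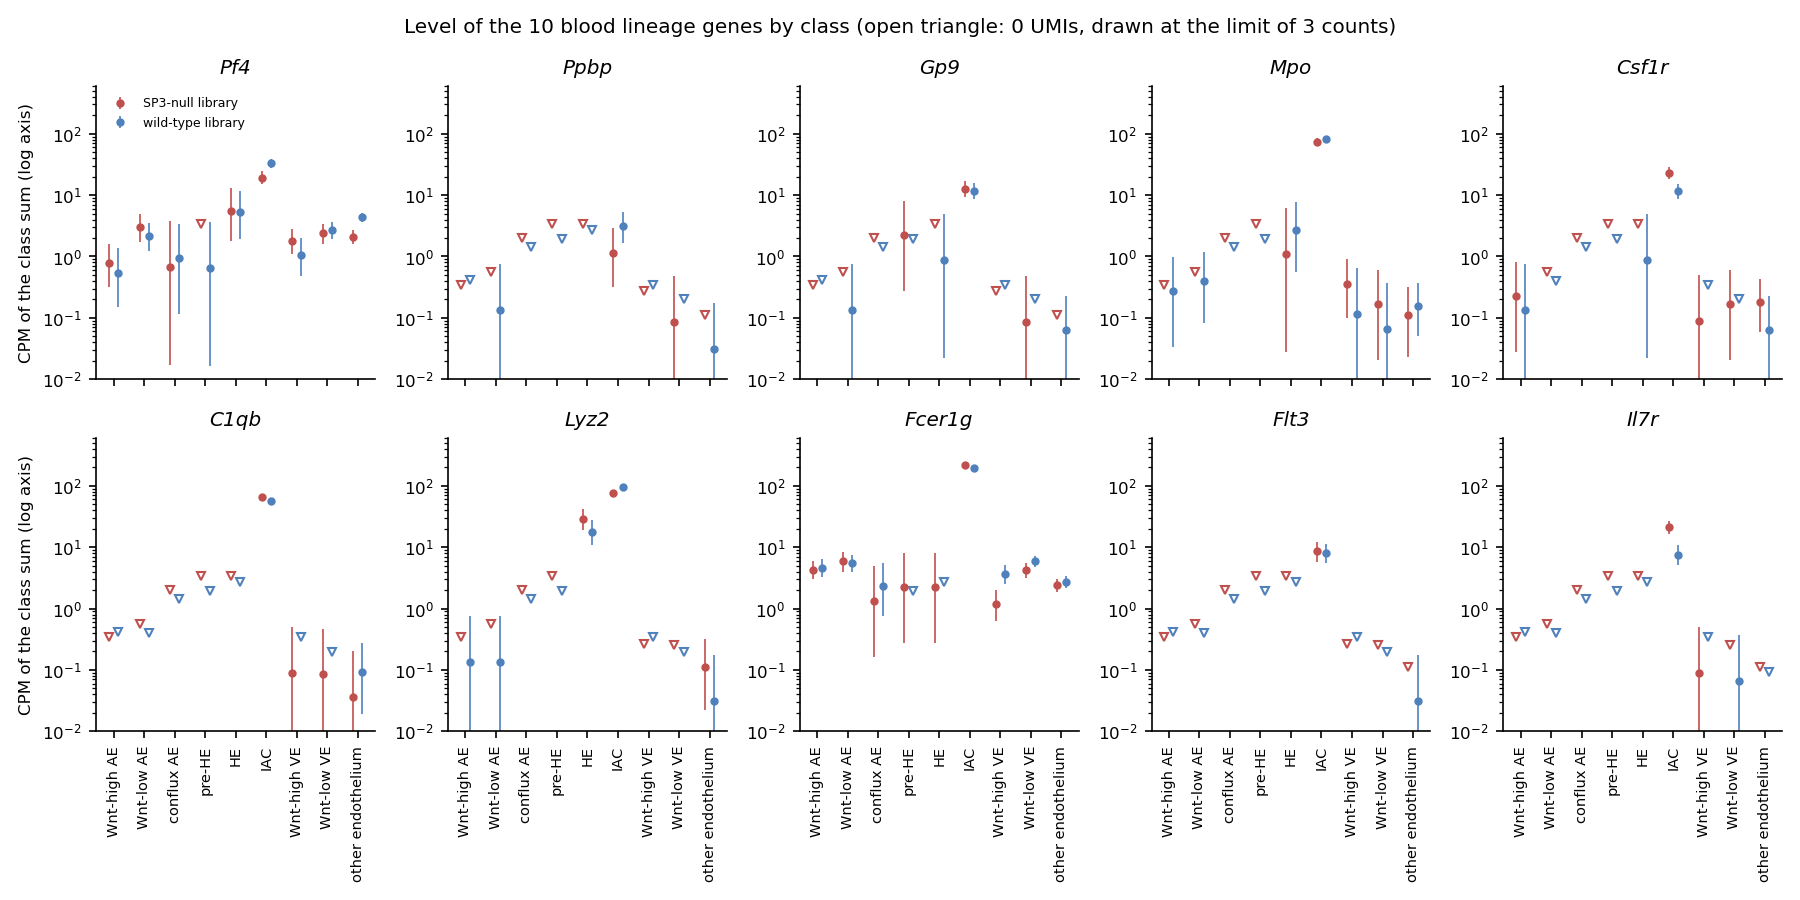
Level of each of the 10 genes (CPM of the class sum, log axis) in 9 classes, for the SP3-null (red, left) and wild-type (blue, right) library, with exact 95% Poisson intervals, some of which run below the axis; open triangles mark 0 UMIs and stand at the limit of 3 counts. IAC is highest for each gene, and Lyz2 is the member that stands out in HE, at 29.0 and 17.8 CPM.

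Each member had its highest level in IAC in both libraries. For Ppbp in the SP3-null library this rested on 4 UMIs, too few to set IAC apart from every class at 0. In the endothelium outside HE, Pf4 and Fcer1g were the only members with more than 12 UMIs in a library. Fcer1g, the common signal chain of Fc receptors, had 202 SP3-null and 287 wild-type UMIs over all endothelium, and was found in 4.85% and 6.26% of Wnt-high and Wnt-low cells. Pf4, the chemokine platelet factor 4, had 129 and 213 UMIs there and was found in 3.0% and 2.16% of those cells. These shares are the background against which shares in HE and IAC are read. Many of the wild-type UMIs lay in 3 endothelial cells with 60, 19 and 11. None of them carried C1qa, C1qc, Itga2b or Ptprc, and they had 18, 36 and 5 UMIs of the endothelial gene Cdh5. The cell with 60 also had 1 UMI of Ppbp and 1 of Gp9, and the cell with 19 had 1 of Gp9. The remaining 8 genes were found in at most 0.302% of Wnt-high and Wnt-low cells of either library, and Flt3 in none of them.

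In HE, Lyz2 was the member that stood furthest above the endothelium. The gene encodes lysozyme, an antibacterial enzyme of macrophages and granulocytes. Lyz2 had 26 UMIs in SP3-null HE and 20 in wild-type HE, or 29.0 CPM (19.0 to 42.5) and 17.8 CPM (10.9 to 27.5). It was found in 12 of 40 SP3-null cells (30%, 16.6 to 46.5) and in 11 of 59 wild-type cells (18.6%, 9.69 to 30.9), by the exact Clopper-Pearson interval. UMIs per cell went from 0 to 4 in either library with a median of 0, and 5 SP3-null and 2 wild-type cells had 3 or more. In Wnt-high and Wnt-low AE and VE together, 0 of 2164 SP3-null cells and 2 of 2315 wild-type cells (0.0864%) had a Lyz2 UMI, and in conflux AE and pre-HE none did. Set against AE, Lyz2 in SP3-null HE was 137-fold the level that 3 counts, the limit of the 0, would give in AE. The lower bound of its log2 ratio there was 6.70, and its log2 ratio in wild-type HE was 7.03 (4.99 to 10.17). Of the genes that reached 20 UMIs in the 2 sums together, 12.4% in the SP3-null and 8.72% in the wild-type library were higher in HE than in AE by at least 1 log2 unit, and the members that passed this count were Lyz2 and Pf4 of 3 measured, in both libraries. Lyz2 reached 20 UMIs through HE alone, so that its place in this count is set by the limit. After thinning every cell to 5000 UMIs, which leaves out 4 cells of each library, 2 of 36 SP3-null and 3 of 55 wild-type HE cells still had a Lyz2 UMI, against 0 of 1896 and 0 of 1933 Wnt-high and Wnt-low cells.

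The Lyz2 UMIs of HE lay in cells that were endothelial by Cdh5, the vascular cadherin. With a split made after the values were seen, the 12 SP3-null cells with Lyz2 had 5 to 22 Cdh5 UMIs (median 11.5), against 0 to 32 (median 11) in the 28 without. The 11 wild-type cells with Lyz2 had 6 to 43 (median 11), against 0 to 23 (median 9) in the 48 without. In CPM, Cdh5 was lower in cells with Lyz2, at 470 SP3-null and 482 wild-type, against 530 and 622 in those without. All 12 SP3-null and all 11 wild-type cells with Lyz2 also carried Runx1, the transcription factor required for the endothelial to hematopoietic transition, against 16 of 28 and 33 of 48 cells without it. Cells with Lyz2 were slightly deeper, at medians of 22282.5 and 20976 UMIs against 20065.5 and 17140. Their Runx1 level was 322 CPM in the SP3-null and 445 CPM in the wild-type library, against 200.1 and 320.2 CPM in cells without Lyz2. Spi1 was at 161 and 125 CPM in cells with Lyz2, against 78.7 and 80.7 CPM. Kit and Gfi1 differed between the libraries. In SP3-null cells Kit was at 206 against 103 CPM and Gfi1 at 122 against 46.2 CPM. In wild-type cells Kit was at 97.1 against 109 CPM and Gfi1 at 78.3 against 70.7 CPM. Ptprc had 3 against 2 UMIs in SP3-null cells and 0 in wild-type cells. None of the 8 macrophage markers had a UMI in SP3-null HE, and 3 of 8 had 4 UMIs in all in wild-type HE (3.56 CPM), where C1qa, Adgre1 and Cx3cr1 were at 0. Lyz1, the neighbouring and closely related lysozyme gene, had no UMI in HE or IAC of either library, so that all lysozyme counts there were assigned to Lyz2.

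The other members were sparse in HE. Pf4 had 5 UMIs in 5 of 40 SP3-null cells (12.5%, 4.19 to 26.8) and 6 UMIs in 5 of 59 wild-type cells (8.47%, 2.81 to 18.7). These shares lay above those in Wnt-high and Wnt-low endothelium, but in deeper cells, and after thinning to 5000 UMIs Pf4 was in 0 of 36 and 1 of 55. In CPM, its log2 ratio over AE was 1.78 (0.029 to 3.21) in SP3-null and 1.97 (0.37 to 3.34) in wild-type HE. Mpo, myeloperoxidase of granulocyte progenitors, had 1 and 3 UMIs. Its log2 ratio over AE was 2.97 (0.29 to 5.33) in wild-type HE, and SP3-null AE had no UMI of it. Fcer1g had 2 and 0 UMIs in HE, and its wild-type level lay below the 5.09 CPM of wild-type AE, with an upper bound of -0.60 for the log2 ratio. Gp9 and Csf1r had 0 UMIs in SP3-null HE and 1 each in wild-type HE. C1qb, Ppbp, Flt3 and Il7r had none in either library. By the limit of 3 counts, this bounds the cells with a UMI at 7.50% of SP3-null and 5.08% of wild-type HE cells, and not the cells that express the gene. Platelet and myeloid members met in the same cell in 3 SP3-null and 3 wild-type HE cells, and no HE cell had a lymphoid member.

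Between the libraries, HE values did not separate. The log2 ratio of SP3-null over wild-type HE was 0.71 (-0.19 to 1.63) for Lyz2, 0.066 (-1.98 to 2.04) for Pf4, 0.60 (-0.23 to 1.45) for the myeloid sum and -0.16 (-2.15 to 1.72) for the platelet sum. Lyz2 was the only member with at least 20 UMIs and it stayed under 1 log2 unit, while 3.41% of 7977 genes were at least that much higher and 2.51% at least that much lower. With 26 SP3-null and 20 wild-type UMIs of Lyz2, and fewer of every other member, these intervals are wide.

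**Figure D2:**
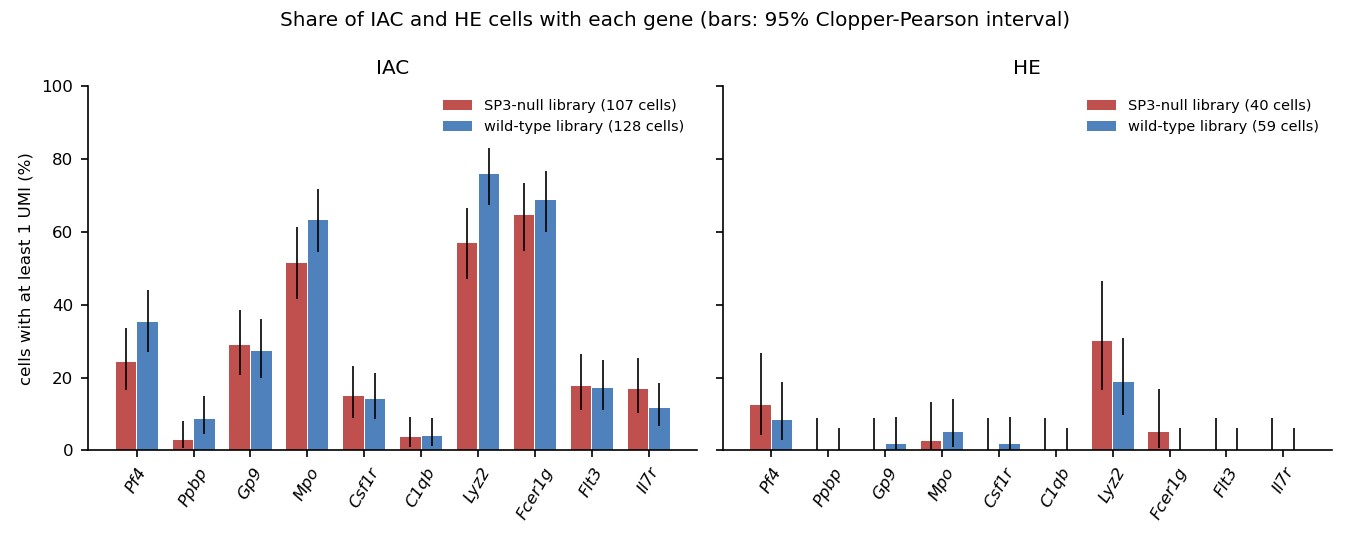
Percent of cells with at least 1 UMI of each gene in IAC (left) and HE (right), for the SP3-null (red) and wild-type (blue) library, with exact 95% Clopper-Pearson intervals. In IAC Fcer1g, Lyz2 and Mpo are found in 51.4% to 75.8% of cells, and in HE only Lyz2 exceeds 12.5%.

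In IAC every member was found. Cells with at least 1 UMI were most frequent for the myeloid genes Fcer1g, Lyz2 and Mpo. Fcer1g was found in 69 of 107 SP3-null and 88 of 128 wild-type cells (64.5% and 68.8%), Lyz2 in 61 and 97 (57.0% and 75.8%), Mpo in 55 and 81 (51.4% and 63.3%), Gp9 in 31 and 35 (29.0% and 27.3%), Pf4 in 26 and 45 (24.3% and 35.2%), Flt3 in 19 and 22 (17.8% and 17.2%), Il7r in 18 and 15 (16.8% and 11.7%), Csf1r in 16 and 18, C1qb in 4 and 5 (3.74% and 3.91%) and Ppbp in 3 and 11 (2.80% and 8.59%). The order was not the same in both libraries, and Lyz2 stood above Fcer1g, Pf4 above Gp9, Csf1r above Il7r and Ppbp above C1qb in the wild-type library only. Ordered by share within each library, the intervals of neighbours overlapped except at the step between Fcer1g, Lyz2 and Mpo on one side and Gp9 and Pf4 on the other. For Lyz2 the SP3-null share (interval 47.1 to 66.5) lay below the wild-type share (67.4 to 82.9), and this gap narrowed to 25.2% and 32.5% in cells thinned to 5000 UMIs. Of the genes with at least 20 UMIs in IAC and HE together, 6.75% of 9371 in the SP3-null and 6.94% of 9783 in the wild-type library were higher in IAC by at least 1 log2 unit. The 9 members other than Ppbp were among them in both libraries, but all except Lyz2 reached 20 UMIs through IAC alone, so that nothing is read from this count and the values are given by gene. Mpo had a log2 ratio of IAC over HE of 6.06 (3.57 to 11.37) in the SP3-null and 4.93 (3.37 to 7.22) in the wild-type library. Lyz2, already present in HE, had 1.37 (0.79 to 2.01) and 2.40 (1.76 to 3.13). Fcer1g had 6.59 (4.73 to 9.64) in the SP3-null library. In wild-type IAC it was 72.0-fold the level that 3 counts would give in HE, which was at 0, with a lower bound of 5.87 for the log2 ratio. Pf4 had 1.78 (0.49 to 3.45) and 2.64 (1.48 to 4.11), and without a small set of cells described below the SP3-null value was 0.89 (-0.46 to 2.60), under 1 log2 unit. The sums over lineages were 33.0 CPM in SP3-null and 48.1 CPM in wild-type IAC for platelet members, 453 and 436 CPM for myeloid members and 29.8 and 15.7 CPM for lymphoid members.

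The 10 genes were not spread alike over the IAC cells. A small set of IAC cells had at least 10 UMIs over C1qa and C1qc, the genes of the other chains of complement C1q, which macrophages secrete, a limit that was chosen after seeing the data.

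**Figure D3:**
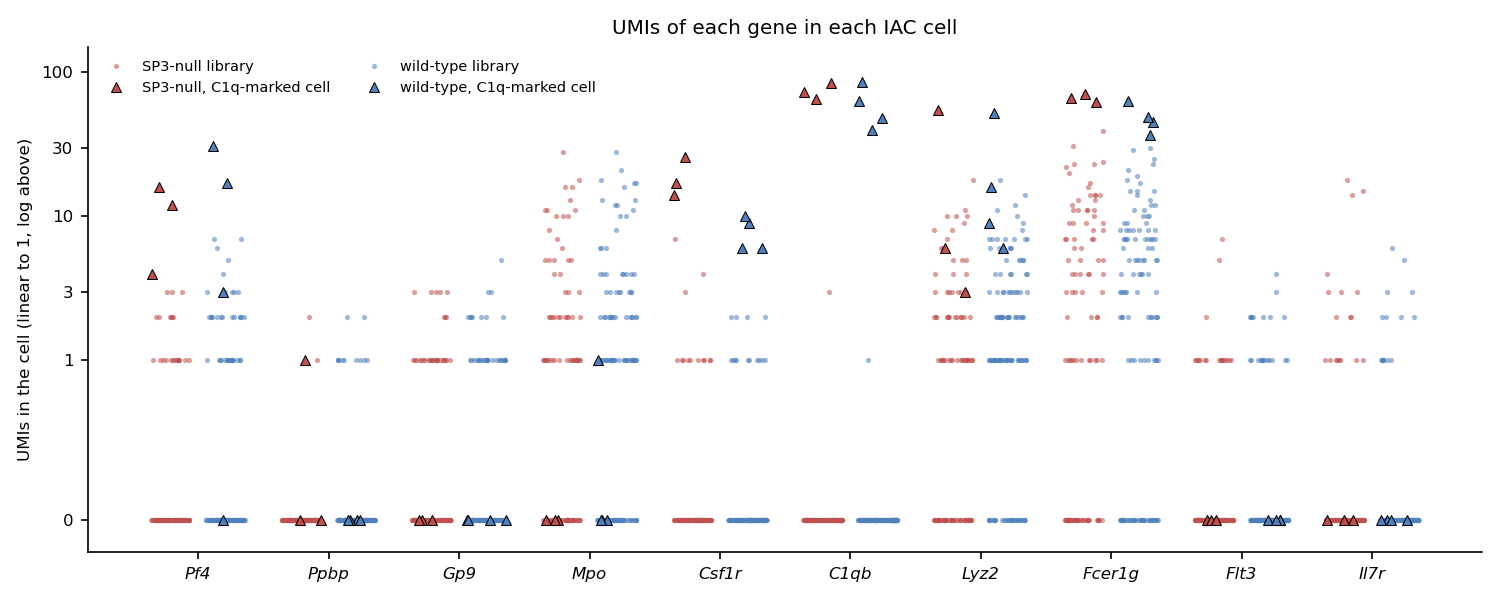
UMIs of each gene in each IAC cell (linear up to 1, logarithmic above, points spread sideways), SP3-null in red on the left and wild-type in blue on the right, with C1q-marked cells as triangles. The 7 triangles hold nearly all C1qb and the highest Pf4, Csf1r and Fcer1g values, and lie at 0 for Gp9, Flt3 and Il7r.

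These C1q-marked cells were 3 of 107 in the SP3-null and 4 of 128 in the wild-type library, at depths of 35315 to 39287 and 26499 to 68057 UMIs. The 3 SP3-null cells had 65, 73 and 84 UMIs of C1qb, and the 4 wild-type cells 40, 48, 63 and 86. They held 98.7% of the SP3-null and 99.6% of the wild-type C1qb UMIs of IAC. For Csf1r, the receptor for macrophage colony stimulating factor, they held 70.4% and 63.3%. They also held 47.8% and 36.4% of Pf4, 24.4% and 20.9% of Lyz2 and 26.5% and 24.0% of Fcer1g. In contrast, they carried no UMI of Gp9, Flt3 or Il7r, no Kit and no Itga2b, and 0 and 1 UMIs of Mpo. Their Cdh5 came to 1 UMI in the SP3-null and 5 UMIs in the wild-type library, and all 7 carried Adgre1 and Cx3cr1, with 127 SP3-null and 84 wild-type UMIs of Mrc1. Macrophage markers over the 8 genes of the list stood at 185 CPM in SP3-null IAC and 121 CPM in wild-type IAC, and at 12.7 and 10.2 CPM once these cells were left out. A further SP3-null cell of 2477 UMIs had 3 C1qb, 4 C1qa and 2 C1qc UMIs and lay under the limit.

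Platelet genes in IAC split in this way. Pf4 had 67 UMIs in SP3-null IAC and 140 in wild-type IAC, 19.2 and 33.2 CPM, and went up to 16 and 31 UMIs in a C1q-marked cell but to no more than 3 and 7 in any other cell. Outside the C1q-marked cells 35 and 89 UMIs remained (10.4 and 22.0 CPM), in 23 of 104 and 42 of 124 cells. Gp9, a subunit of the von Willebrand factor receptor of platelets, had 44 and 50 UMIs, all of them outside the C1q-marked cells, and never more than 3 SP3-null or 5 wild-type UMIs per cell. Ppbp, which encodes pro-platelet basic protein and is the neighbour of Pf4, had only 4 and 13 UMIs. Of the cells with Pf4, 2 of 23 SP3-null and 8 of 42 wild-type cells had Ppbp too, and of those without it 0 of 81 and 3 of 82. Gp9 was in 7 of 23 and 16 of 42 cells with Pf4, and in 24 of 81 and 19 of 82 without it. Cells with Pf4 were deeper, at medians of 31259 SP3-null and 36408 wild-type UMIs against 29313 and 27811. The defining megakaryocyte genes Gp6 and Tubb1 were at 0 in IAC of both libraries, while the summed list of 8 stood at 35.0 CPM in SP3-null and 51.0 CPM in wild-type IAC. Since the sort removed cells with much CD41, the platelet lineage in IAC was seen through that gate.

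Myeloid genes marked most IAC cells, in unequal amounts. Mpo had 259 SP3-null and 343 wild-type UMIs (74.3 and 81.3 CPM), from 0 to 28 UMIs per cell with a median of 1 in each library, and 11 SP3-null and 13 wild-type cells had 10 or more. Fcer1g was the most abundant member, with 751 and 810 UMIs (216 and 192 CPM), a median of 2 and 3 UMIs per cell and a maximum of 71 and 63. Without the C1q-marked cells its level was 164 and 153 CPM. Lyz2 had 262 and 397 UMIs (75.2 and 94.2 CPM), a median of 1 and 1.5 UMIs per cell and a maximum of 55 and 52 in C1q-marked cells, and of 18 in other cells of each library. Of the cells with Mpo that were not C1q-marked, 44 of 55 SP3-null and 67 of 80 wild-type cells had Fcer1g, against 22 of 49 and 17 of 44 cells without Mpo. Lyz2 did not go with Mpo in this way, and was found in 30 of 55 and 57 of 80 cells with Mpo and in 28 of 49 and 36 of 44 cells without it. Cells with Mpo were deeper, at medians of 35360 and 34470.5 UMIs against 26039 and 25346.5.

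Among IAC cells, Lyz2 and the other frequent myeloid genes ran in opposite directions along Cdh5. For Lyz2 this order did not extend to HE, where Cdh5 was at 509 CPM in the SP3-null and 582 CPM in the wild-type library. Lyz2 there was at 29.0 and 17.8 CPM, below IAC cells with 3 or more Cdh5 UMIs. Mpo in HE was at 1.12 and 2.67 CPM and Fcer1g at 2.23 and 0 CPM. Both lay below those IAC cells too, so that their order along Cdh5 continued into HE.

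**Figure D4:**
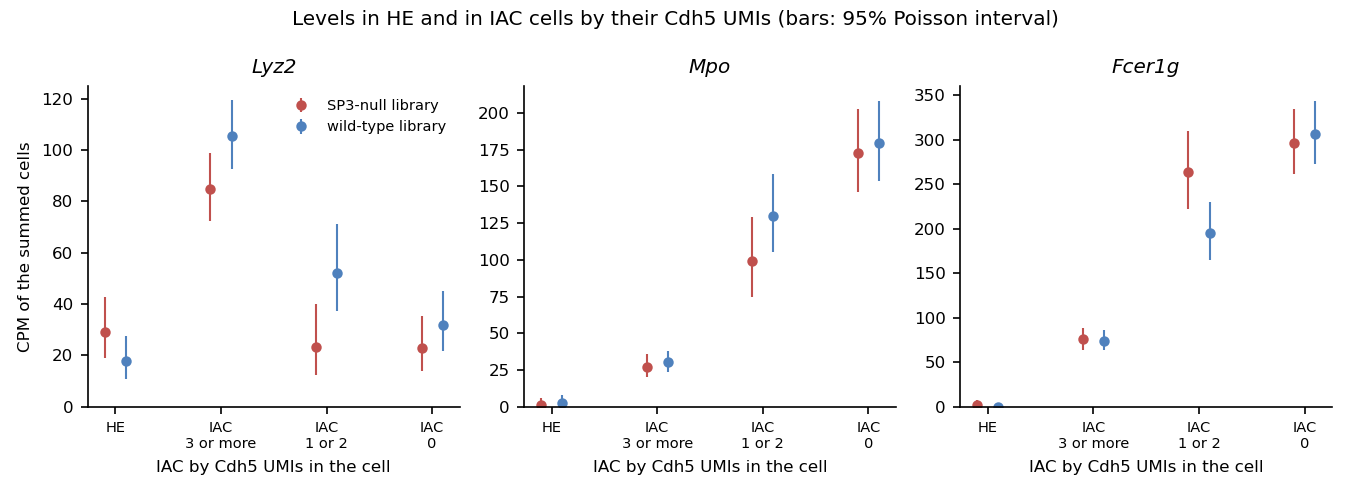
CPM of Lyz2, Mpo and Fcer1g in HE and in IAC cells grouped by their Cdh5 UMIs (3 or more, 1 or 2, and 0; C1q-marked cells left out), for the SP3-null (red, left) and wild-type (blue, right) library, with exact 95% Poisson intervals. Lyz2 is highest in IAC cells with 3 or more Cdh5 UMIs, and Mpo and Fcer1g in IAC cells with 0.

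IAC cells that were not C1q-marked were divided, after seeing the data, by their Cdh5 UMIs into 3 or more (61 SP3-null and 73 wild-type cells), 1 or 2 (17 and 24) and 0 (26 and 27). Across these bins Lyz2 was at 84.9, 23.4 and 22.9 CPM in the SP3-null library and at 105, 52.2 and 31.8 CPM in the wild-type library. In contrast, Mpo was at 27.3, 99.2 and 173 CPM in the SP3-null library and at 30.2, 130 and 179 CPM in the wild-type library. Fcer1g likewise was lowest where Cdh5 was high, at 75.6, 263 and 296 CPM in SP3-null cells and at 73.9, 195 and 307 CPM in wild-type cells. The intervals of the first and the last bin do not overlap for any of the 3 genes in either library. Median depth was similar over the bins, from 28846 to 31492.5 UMIs in the SP3-null and from 29957.5 to 35559 UMIs in the wild-type library. The middle SP3-null bin held only 17 cells. Pf4 showed no such order in SP3-null cells, at 8.74, 12.6 and 12.6 CPM, and was at 25.5, 20.1 and 15.4 CPM in wild-type cells with overlapping intervals.

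Lymphoid genes were found in a minority of IAC cells. Flt3, a receptor of multipotent and lymphoid-primed progenitors, had 30 SP3-null and 34 wild-type UMIs (8.61 and 8.06 CPM), with at most 7 and 4 in a cell. Il7r, a chain of the interleukin 7 receptor of early lymphoid cells, had 74 and 32 UMIs (21.2 and 7.59 CPM), with at most 18 and 6 in a cell. The 3 SP3-null cells with the most lymphoid UMIs had 18, 14 and 15 Il7r UMIs, which together were 63.5% of those in SP3-null IAC. In that order, the 3 cells differed in Mpo (10, 1 and 0 UMIs), Csf1r (0, 7 and 0) and Flt3 (0, 2 and 0). All 3 carried Fcer1g (4, 9 and 7), Kit (3, 6 and 8) and Ptprc (1, 17 and 10). None had a platelet member or C1qb, and the third had 2 Cdh5 UMIs. The wild-type cell with the most lymphoid UMIs had 6 of Il7r and 4 of Flt3. Il7r was in 5 of 19 SP3-null and 8 of 22 wild-type cells with Flt3, and in 13 of 85 and 7 of 102 cells without it. Csf1r outside the C1q-marked cells was in 6 of 19 and 7 of 22 cells with Flt3, and in 7 of 85 and 7 of 102 without it, at similar depth.

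Members of different lineages often met in 1 IAC cell. That was the case in 61 of 107 SP3-null cells (57.0%, 47.1 to 66.5) and 79 of 128 wild-type cells (61.7%, 52.7 to 70.2). Platelet and myeloid members met in 32 and 50 cells, myeloid and lymphoid members in 16 and 16, all 3 lineages in 13 and 13, and platelet with lymphoid members alone in none. Only 4 SP3-null and 3 wild-type cells had no member. Cells with all 3 lineages were deep, at medians of 42203 and 34872 UMIs. The count depended on depth and on the limit. With at least 2 UMIs per lineage it was 25 of 107 and 54 of 128, and with each cell thinned to 5000 UMIs 16 of 103 and 17 of 126. Leaving out Fcer1g, the member most frequent in endothelium, changed it to 60 and 79. Without the C1q-marked cells it was 58 of 104 and 76 of 124, with platelet and myeloid members together in 29 and 47 cells. Doublets were not removed, so that cells caught together would count as mixed, and their part was not tested.

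Between the libraries, the interval of the IAC ratio lay off 0 for Pf4, Csf1r, Lyz2, Fcer1g and Il7r, and not all of these held when cells were left out or thinned.

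**Figure D5:**
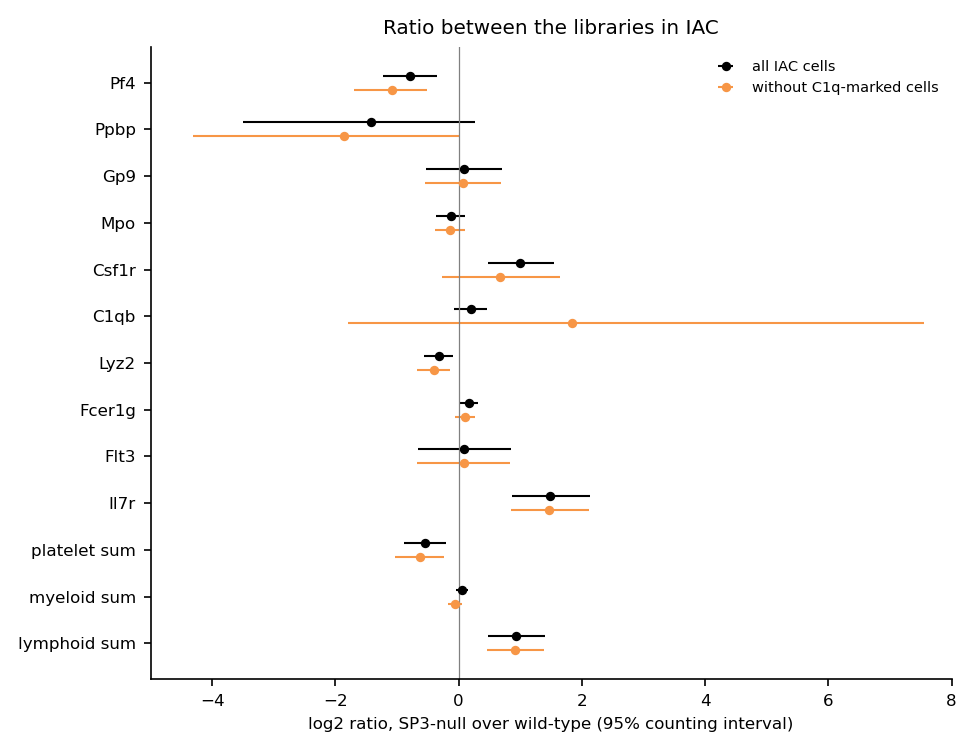
Log2 ratio of SP3-null over wild-type IAC for each gene and lineage sum, over all cells (black) and without C1q-marked cells (orange), with exact 95% intervals that cover counting error only. Il7r lies above 0 and Pf4 below 0 in both sets of cells, while the interval of Csf1r includes 0 once the C1q-marked cells are left out.

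Among the 9 members with at least 20 UMIs, Csf1r and Il7r were higher by at least 1 log2 unit in SP3-null IAC, where 1.02% of 10140 genes were, and none was lower by that much, where 2.53% of genes were. Il7r had a log2 ratio of 1.48 (0.87 to 2.13), which was 0.87 when the 3 highest cells of each library were left out. Csf1r lay on that limit, at 1.00 (0.47 to 1.54), and without the C1q-marked cells 24 SP3-null and 18 wild-type UMIs gave 0.67 (-0.27 to 1.64), so that the difference no longer exceeded counting error. Pf4 was lower in SP3-null IAC, at -0.79 (-1.23 to -0.36), but its ratio was -0.12 with each cell thinned to 5000 UMIs and -0.37 without the deepest 5% of cells. Thinned in the same way, Csf1r was at 0.12 and Il7r at 1.07. Without the C1q-marked cells Pf4 was at -1.09 (-1.69 to -0.51), beside Il7r at 1.47, and the genes past 1 log2 unit were then 0.869% higher and 2.63% lower of 10009. Lyz2 was at -0.32 (-0.56 to -0.096) and Fcer1g at 0.17 (0.021 to 0.31), both small. The Lyz2 ratio changed sign with equal weight for each cell, and without the C1q-marked cells Fcer1g was at 0.10 (-0.067 to 0.27), which includes 0. Mpo (-0.13), Gp9 (0.091), C1qb (0.19), Flt3 (0.094) and Ppbp (-1.43) had intervals that include 0. By lineage, the log2 ratio was -0.54 (-0.89 to -0.21) for platelet members, 0.056 (-0.042 to 0.15) for myeloid members and 0.93 (0.47 to 1.40) for lymphoid members. The wider lymphoid and megakaryocyte lists did not show such shifts. Of lymphoid genes 0 of 7 passed 1 log2 unit in either direction (median -0.074), and of megakaryocyte genes 1 of 11, Gata1, was higher and none lower (median -0.050), beside a median of -0.031 over all genes. Of granulocyte and monocyte genes 1 of 17, Ncf4, was lower and none higher (median 0.12). Of macrophage genes 3 of 16 (Adgre1, C1qa and Ccl4) were higher (median 0.41), and without the C1q-marked cells the median was 0.056. These intervals treat UMIs as independent, although 47.8% of the SP3-null Pf4 UMIs and 63.5% of the SP3-null Il7r UMIs came from 3 cells each. The difference between the pools in Xist and Y-linked genes goes with the same comparison, and its part in these ratios was not tested.

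The wider gene lists of each lineage, described here by their 3 genes with the most UMIs and by counts, differed in how they stood in IAC over HE. As for the members, the limit of 20 UMIs favours genes that are high in IAC, whose sum is the deeper. Of granulocyte and monocyte genes with at least 20 UMIs, 11 of 13 in the SP3-null and 12 of 13 in the wild-type library were higher in IAC by at least 1 log2 unit, with none lower, where 6.75% and 6.94% of all genes were higher and 11.4% and 9.9% lower. Coro1a, an actin regulator of leukocytes, was at 272 CPM in SP3-null and 314 CPM in wild-type IAC and at 53.6 and 50.7 CPM in HE, and Spi1, which encodes PU.1, was at 181 and 164 CPM in IAC and at 107 and 93.3 CPM in HE. Laptm5, a lysosomal protein of blood cells, was at 173 and 147 CPM in IAC and at 92.7 and 65.8 CPM in HE. Macrophage genes were higher for 11 of 14 and 12 of 15, which became 2 of 5 and 2 of 4 without the C1q-marked cells, where 5.99% and 6.5% of all genes were. Apoe was high in both classes, at 544 and 638 CPM in IAC and 600 and 564 CPM in HE, whereas Tyrobp, the partner chain of many myeloid receptors, was at 119 and 110 CPM in IAC with 0 and 1 UMIs in HE, and C1qc at 41.3 and 33.9 CPM with 0 and 1. Megakaryocyte genes went both ways, with 5 higher and 3 lower of 12 in the SP3-null library and 4 higher and 2 lower of 11 in the wild-type library. Plek, a major substrate of protein kinase C in platelets, was at 60.3 and 49.6 CPM in IAC with 0 and 1 UMIs in HE. Vwf, which endothelium also makes, was at 49.9 and 42.9 CPM in IAC and 137 and 214 CPM in HE, and Cd9 at 85.2 and 88.2 CPM in IAC and 97.1 and 148 CPM in HE. Lymphoid genes were higher for 3 of 6 and 3 of 8, with 1 lower in each library, Ebf1, a factor of early B cells. Ikzf1, the lymphoid factor Ikaros, was at 70.3 and 74.0 CPM in IAC and 7.82 and 6.22 CPM in HE, Satb1 at 36.7 and 29.4 CPM in IAC and 24.6 and 8.89 CPM in HE, and Ltb at 20.1 and 17.1 CPM in IAC and 4.47 and 2.67 CPM in HE.

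Other lists bear on the same cells. Mast and eosinophil genes were higher in IAC than in HE for 2 of 4 and lower for 1, Gata2, in each library, again beside 6.75% and 6.94% of all genes higher and 11.4% and 9.9% lower. Of the 5 mast markers Cpa3 was the only one with a UMI. Kit, shared by mast cells and progenitors, was at 165 CPM in SP3-null and 147 CPM in wild-type IAC, Srgn at 126 and 158 CPM and Gata2 at 43.0 and 40.3 CPM. Stem and progenitor genes were higher for 4 of 14 and 6 of 14, with 2 lower in the SP3-null library (Gfi1 and Mecom) and 3 in the wild-type library (these and Procr). Cd34 was at 389 and 439 CPM, Runx1 at 289 and 283 CPM and Myb at 200.3 and 210.1 CPM in IAC.

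The genes whose level over the 235 IAC cells was most like that of a member, by Pearson's r of log2(CPM + 100) with each library centred on its mean, were compared among 10938 genes and are a description only, as cells share library and depth. For Fcer1g they were Rac2 (0.70), Cd52 (0.68) and Tyrobp (0.65). For Mpo they were Prtn3, the protease stored with it in neutrophil granules (0.51), Cmtm7 (0.48) and Slc22a3 (0.44). For Lyz2 they were Apoe (0.46), Hmox1 (0.45) and Ednrb (0.45). Csf1r was most like C1qc (0.76), Lrp1 (0.75) and Maf (0.74), and Pf4 most like F13a1 (0.62), Igsf6 (0.61) and Mrc1 (0.58). Without the C1q-marked cells no gene reached 0.3 for Pf4 (highest 0.28) and Csf1r was no longer with those genes, its highest being Tnni1 (0.44), while Rac2 (0.70), Prtn3 (0.50) and Apoe (0.39) stayed first for Fcer1g, Mpo and Lyz2. For the sparse members Flt3, Il7r, Gp9 and Ppbp the highest r lay between 0.40 and 0.51, for Krtcap3, Itgam, Tnni1 and Lss, all but Itgam found in at most 24 cells.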

How the data were processed

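One 10x library was made from each genotype. The authors aligned reads to mm10 (GRCm38) with Cell Ranger (version: not given in the sources used here), dropped barcodes under 1000 UMIs or 1000 genes, took out contaminating types and assigned classes from the nearest cells of a reference map. The deposited matrix holds counts, unnormalized, of UMIs by gene and by cell. The deposited cell table gives, as computed by the authors, the mitochondrial fraction of each cell and a score, the size factor, which was not used. The 10 members and all lists were chosen with earlier results of these data known.

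UMIs were summed per class and library over 71154918 SP3-null and 79456081 wild-type UMIs and given as CPM with exact Poisson intervals. Ratios carry exact conditional intervals and shares Clopper-Pearson intervals, at 95%. Where a sum is 0, 3 counts are its limit. No test was made. A gene past 1 log2 unit was counted among those with at least 20 UMIs over both sums. Named are the members, the 3 genes with most UMIs of each list, and for members found in at least 10 IAC cells the 3 genes most correlated with r of at least 0.3. No doublet caller was run. Interval steps were tested on simulated data. Alternatives were edgeR 4.0.16 TMM, DESeq2 1.42.0 size factors, per-cell means, thinning, other cell filters and, chosen after seeing the data, leaving out C1q-marked cells. Python 3.11.15, numpy 2.4.6, scipy 1.17.1 and R 4.3.3 were used.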

Additional observations from a re-analysis of the deposited data

Results flagged for a closer look

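The class table holds 1 wild-type cell of the class FL-HSC, which no comparison above used, and its member counts lay above the limit that a count of 0 allows. In its 104553 UMIs it had 103 of C1qb, 68 of Fcer1g, 37 of Pf4, 28 of Lyz2 and 26 of Csf1r, and none of Mpo, Gp9, Ppbp, Flt3 or Il7r. It also carried 52 UMIs of C1qa, 58 of C1qc, 36 of Mrc1 and 35 of Cx3cr1, beside 14 of Kit.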

How the results depend on the processing

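No paired analysis was possible because each genotype has 1 library. For the lineage sums and mixed cells, 50 values under alternatives stayed inside the counting interval of the reported value and 11 did not, while the lymphoid ratio in IAC stayed inside it under each. Thinned HE gave no platelet ratio. The platelet log2 ratio in IAC was -0.081 after thinning to 5000 UMIs. The myeloid ratio in IAC, 0.056 as reported, was 0.26 as a mean of per-cell CPM, -0.15 without the 3 highest cells of each library, 0.35 without the deepest 5% of cells and -0.058 without C1q-marked cells. The share of IAC cells with more than 1 lineage was 23.4% in the SP3-null and 42.2% in the wild-type library at 2 UMIs or more, 15.5% and 13.5% after thinning to 5000 UMIs, and 15.2% and 12.5% after thinning to 3000 UMIs. The Lyz2 ratio in IAC, -0.32 as reported, was 0.021 as a mean of per-cell CPM and 0.091 without the deepest 5% of cells. Of the ratios of single genes, 111 stayed inside their interval, 11 moved out of it and 2 changed sign, and of the shares of cells with a lineage 26 stayed and 28 moved, all of these at 2 UMIs or more or after thinning, and the cause of the shifts was not tested. Low member counts limit HE, where 1 UMI is 1.12 CPM in the SP3-null and 0.889 CPM in the wild-type library.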

Other observations

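Outside the C1q-marked cells, 3 SP3-null and 3 wild-type IAC cells had at least 3 UMIs of Cpa3, a carboxypeptidase of mast cells and some progenitors, a split made after seeing the data. Mpo stood at 327 CPM in the 3 SP3-null and 337 CPM in the 3 wild-type cells, against 64.7 and 72.7 CPM in the other IAC cells. Fcer1g stood at 487 and 424 CPM there, against 148 and 140 CPM, and Prtn3 at 371 and 359 CPM, against 145 and 138 CPM. Flt3, Il7r and C1qb had no UMI in these 6 cells, Ms4a2 had none either, and Cdh5 had 1 and 0 UMIs. The cells were deep, at medians of 44186 and 57301 UMIs, against 29455 and 30536. Outside the C1q-marked cells, IAC cells with 0 Cdh5 UMIs, most of these 6 among them, were nearer in level. Mpo stood there at 173 CPM in the SP3-null and 179 CPM in the wild-type library, and Fcer1g at 296 and 307 CPM.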
